A study of Homo sapiens with 12 samples.

Results

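Epigenetic priming of pancreatic cancer cells was described here where all cells also received calcipotriol (CPT), a Vitamin D analogue. The comparison set the 3 CPT+GTA+5-Aza libraries against the 3 CPT libraries across all genes, which are 6 of the 12 RNA-seq libraries of the study and were chosen by their treatment labels. All were made from MiaPaca2, a single established human pancreatic ductal adenocarcinoma (PDAC) line labelled WT, so the values describe that line. CPT libraries came from cells given CPT at 1 µM, and CPT+GTA+5-Aza libraries from cells given CPT at 1 µM, GTA at 2 mM and 5-Aza at 1 µM, each for 24 h. The other 6 libraries are Con (DMSO) and GTA+5-Aza (GTA at 2 mM and 5-Aza at 1 µM without CPT) after the same 24 h, and they served to ask whether the response to priming differed when CPT was left out.

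GTA is a triacetate of glycerol that cells cleave to acetate, which feeds the acetyl-CoA used to acetylate histones. 5-Aza (5-Aza-2′-deoxycytidine) is a deoxycytidine analogue that is built into DNA and traps DNA methyltransferases, so that methyl groups are lost from CpG sites as cells replicate. Methylated promoters and deacetylated histones keep genes silent, and among the genes known to be held this way in cancer lines are germline genes, interferon-stimulated genes, HLA class I genes and inhibitors of WNT signalling. CPT acts through the Vitamin D receptor VDR, a nuclear receptor that pairs with RXR proteins and switches on targets such as CYP24A1, the enzyme that breaks down active Vitamin D.

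Total counts were 18476768 to 20564807 in the CPT libraries and 16162490 to 18676151 in the CPT+GTA+5-Aza libraries, and 17123 of the 63677 listed identifiers passed edgeR's filter on low counts. CPT replicate 3 stood apart from the other libraries on the second principal component (-36.3, with the other 11 between -2.99 and 16.1), so counts are also given without it. KRT8, KRT18 and VIM were abundant, CDKN2A and CDKN2B, which MiaPaca2 is known to lack, had 0 counts in all 6, and endothelial markers summed to at most 0.624 CPM (counts scaled to the size of the library), acinar markers to at most 0.44 CPM, islet markers to at most 0.0612 CPM and immune markers to at most 1.74 CPM per library. Of the fibroblast markers, COL1A1 and COL1A2 passed the test as higher, COL3A1 was expressed, and LUM had 0 counts in all 6 libraries. Their summed level was 780 to 848 CPM in CPT and 916 to 942 CPM in CPT+GTA+5-Aza, and its part in other results was not tested. The epithelial markers EPCAM, CDH1, CFTR and GATA6 were at or near 0 (at most 0.245 CPM), although the labels give the cell type as PDAC. The labels do not say that replicates came from separate cultures, so p-values measure the spread between these libraries, and bulk RNA cannot tell fewer cells of a kind from less RNA per cell.

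Priming raised more genes than it lowered, and most clearly so among changes above 1.5-fold. DEGs, taken as a fold change above 1.5 with an unadjusted P under 0.05, made up 6.93% of tested genes in the higher direction and 1.74% in the lower direction. With the same fold threshold and an adjusted p under 0.05 (edgeR, quasi-likelihood F test, p-values adjusted after Benjamini and Hochberg), 851 genes (4.97%) were higher and 141 (0.823%) were lower in CPT+GTA+5-Aza than in CPT. At any fold, an adjusted p under 0.05 was reached by 9.57% of tested genes as higher and 7.39% as lower. These 2 shares are the background for the gene lists below. The shares were 11.8% and 9.39% over protein-coding genes, and 8.27% and 16.7% over genes at 32 CPM or more in Con. List members near 0 in CPT passed the filter through other groups, where they were higher, so counts that hold them carry that selection. Among the 851 and 141 genes, which were chosen by fold and p in these same libraries, the median change was 2.04-fold upward and 1.87-fold downward. Without CPT replicate 3, 771 genes were higher and 136 lower with the fold threshold. At any fold, the number of lower genes dropped from 1265 to 766 without CPT+GTA+5-Aza replicate 2 and to 805 without replicate 3 of that group. With library size alone in place of TMM scaling, 69.0% of the genes called at any fold were higher (1986 against 891 lower), where TMM gave 56.4%, DESeq2 size factors 54.7% and removal of each library's GC trend 51.7% (1721 against 1611).

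The genes with the smallest p-values had replicate values close together. PTX3 (ENSG00000163661, chr3:157436850-157443633, plus strand), which encodes the secreted pattern recognition protein pentraxin 3, was at 154, 159 and 152 CPM in the 3 CPT libraries and at 280, 278 and 270 CPM in the 3 CPT+GTA+5-Aza libraries. The groups did not overlap, and the log2 fold change was 0.83 ± 0.05 (SE, edgeR adjusted p = 2.44e-10). DHRS2 (ENSG00000100867, chr14:23630115-23645639, plus strand), a short-chain dehydrogenase, went from 4.45, 5.12 and 3.93 CPM to 22.3, 20.5 and 19.7 CPM, a 4.62-fold rise (edgeR adjusted p = 2.87e-10). COL6A3 (ENSG00000163359, chr2:237324003-237414328, minus strand), a chain of the matrix protein collagen VI, rose from 74.3, 84.4 and 89.1 to 167, 155 and 157 CPM, with every primed library above every unprimed one (1.93-fold, edgeR adjusted p = 4.63e-10). DNMBP, a scaffold and exchange factor for CDC42, rose 1.79-fold (log2 fold change 0.84 ± 0.07, edgeR adjusted p = 1.35e-09). None of these calls was lost when any of the 6 libraries was left out.

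**Figure D1:**
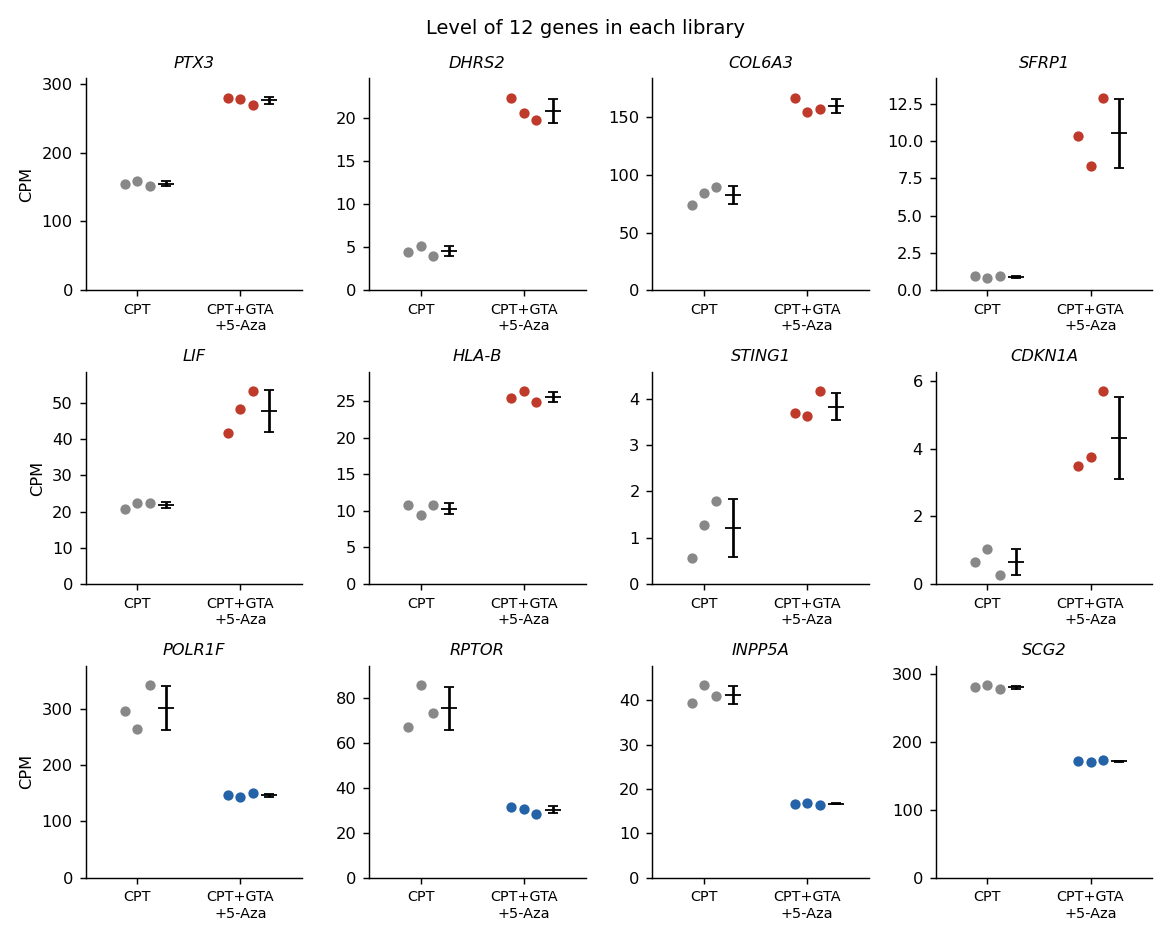
Level of 12 genes in CPM (vertical axis, linear and starting at 0) in the 3 CPT libraries (grey) and the 3 CPT+GTA+5-Aza libraries (red where higher, blue where lower), with bars for the mean ± SD of the 3. The 2 groups do not overlap in any of the 12 panels; PTX3 lies between 152 and 159 CPM in CPT and between 270 and 280 CPM in CPT+GTA+5-Aza.

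Part of the rise came from genes without a read in unprimed cells. In all, 51 genes had 0 counts in each CPT library and at least 3 in each CPT+GTA+5-Aza library, 38 of them protein-coding and 8 on chromosome X, while 6 genes showed the reverse and none of those 6 is protein-coding. These genes were selected on the comparison itself, so their number, folds and p-values are a description. Of the 51, 32 passed the filter on low counts. In the libraries without CPT, 32 of the 51 had 0 counts in all Con libraries, 34 had at least 3 counts in each GTA+5-Aza library, and 22 met both conditions.

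TWIST1 (ENSG00000122691, chr7:19020991-19117636, minus strand), a transcription factor of the mesenchymal state, had 0 counts in each CPT library and 208, 180 and 175 counts in the CPT+GTA+5-Aza libraries (11, 10.2 and 10.7 CPM). The Con libraries held 0, 8 and 0 counts of it. A count of 0 allows up to 3 counts, or 0.165 CPM in the smallest CPT library, so TWIST1 was at least 64.5-fold higher in primed cells (edgeR adjusted p = 3.37e-10). DUSP10, a phosphatase that inactivates p38 and JNK kinases, went from 0 in each CPT library to 32, 38 and 44 counts and was at least 13.2-fold higher (edgeR adjusted p = 7.88e-06). FAM50B, an imprinted gene, reached 0.792, 2.16 and 1.65 CPM, at least 9.3-fold above the limit, and ID4, an inhibitor of basic helix-loop-helix factors, reached 2.11, 1.31 and 1.1 CPM, at least 9.14-fold above it. THBS1 and ADAMTS1, secreted inhibitors of blood vessel growth, were at 0 in CPT as well, with 25, 9 and 18 counts for THBS1 and 23, 22 and 6 counts for ADAMTS1 in the primed libraries. Others in this group, named after their values were seen, were CACNA1H (a T-type calcium channel), NR5A1 (a nuclear receptor of steroid-producing cells), NETO2, HTR1B and FZD9.

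**Figure D2:**
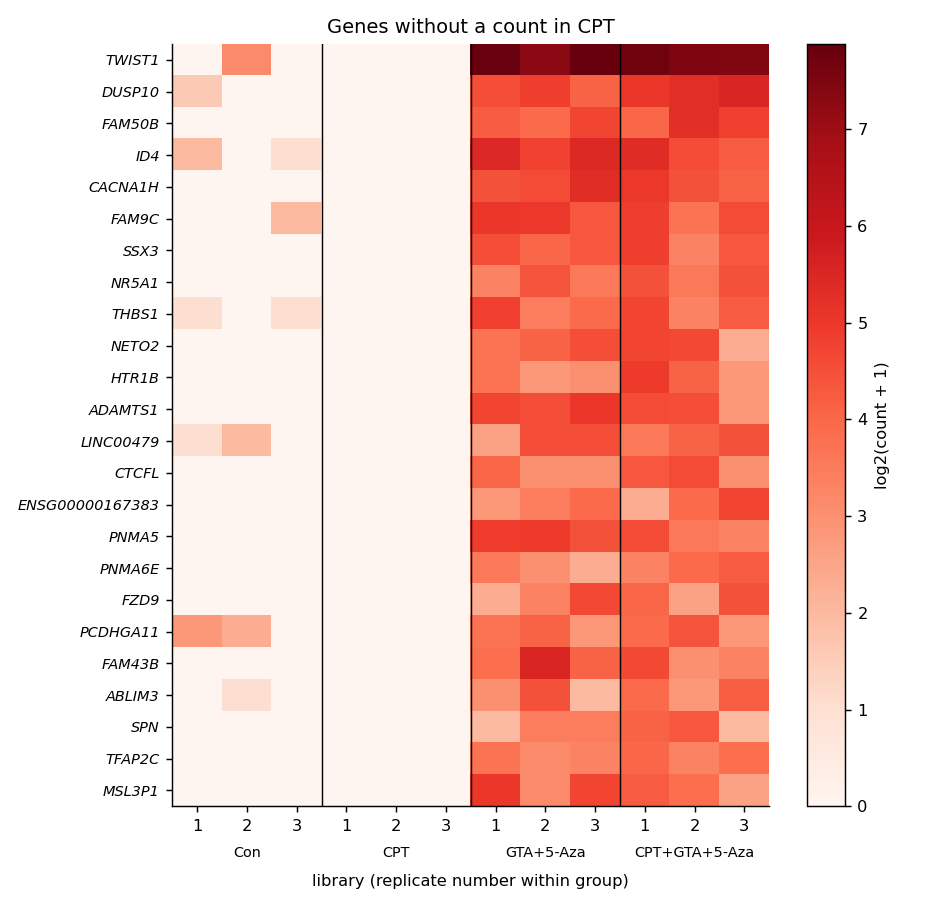
Counts on a log2(count + 1) colour scale of 24 abundant genes among those without a count in CPT (rows) in all 12 libraries (columns, in groups of 3). The CPT columns are at 0 by selection, the CPT+GTA+5-Aza columns reach 208 counts for TWIST1, and most of the genes also have counts in GTA+5-Aza and few or none in Con.

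Genes with 1 to 3 counts over the CPT libraries are given as a ratio with its 95% interval. SVIP (ENSG00000198168, chr11:22813799-22830299, minus strand), an inhibitor of the VCP ATPase in the degradation of misfolded proteins, had 1 count in the 3 CPT libraries together and 7.71, 5.51 and 6.49 CPM in the primed libraries, a ratio of 375-fold with a 95% interval of 66.9 to 14859 (edgeR adjusted p = 2.44e-10). TKTL1 (ENSG00000007350, chrX:154295795-154330350, plus strand), a transketolase-like gene that is mostly expressed in testis, had 2 counts in CPT, both in replicate 1, and was at 2.06, 3.18 and 1.96 CPM after priming, a ratio of 68.3-fold with a 95% interval of 18.5 to 570 (edgeR adjusted p = 8.36e-06). These intervals and the limits for a count of 0 cover counting error only. SVIP and TKTL1 passed the filter through the primed groups, so their p-values carry that selection.

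The promoters of SVIP, DUSP10 and TKTL1, 250 bases before to 50 bases after the start, are shown because CpG sites are the bases on which DNA methylation acts. Where RefSeq lists several starts for a gene (5191 of 27305 promoters), the first listed was used. For DUSP10 and TKTL1 it is the start of the gene as annotated in GENCODE, and for SVIP, which has 3 listed starts, it lies 920 bases inside the annotated gene. Sequences are from RefSeq (GRCh38.p14), 5′ to 3′ on the strand of the gene, with CpG sites in capitals, at chr11:22829330-22829629 on the minus strand, chr1:221742040-221742339 on the minus strand and chrX:154295545-154295844 on the plus strand. They hold 30, 19 and 18 CpG sites.
SVIP: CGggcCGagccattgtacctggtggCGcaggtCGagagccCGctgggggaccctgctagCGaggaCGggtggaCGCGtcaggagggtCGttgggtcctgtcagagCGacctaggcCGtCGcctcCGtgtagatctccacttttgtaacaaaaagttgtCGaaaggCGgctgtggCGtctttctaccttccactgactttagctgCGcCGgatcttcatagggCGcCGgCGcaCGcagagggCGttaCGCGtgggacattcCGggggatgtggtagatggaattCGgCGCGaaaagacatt
DUSP10: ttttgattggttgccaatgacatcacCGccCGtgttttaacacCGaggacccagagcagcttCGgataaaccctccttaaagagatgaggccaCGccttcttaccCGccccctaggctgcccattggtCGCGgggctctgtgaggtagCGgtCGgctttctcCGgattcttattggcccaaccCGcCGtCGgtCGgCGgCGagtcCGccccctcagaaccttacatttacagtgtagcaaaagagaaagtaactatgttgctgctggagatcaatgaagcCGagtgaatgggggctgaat
TKTL1: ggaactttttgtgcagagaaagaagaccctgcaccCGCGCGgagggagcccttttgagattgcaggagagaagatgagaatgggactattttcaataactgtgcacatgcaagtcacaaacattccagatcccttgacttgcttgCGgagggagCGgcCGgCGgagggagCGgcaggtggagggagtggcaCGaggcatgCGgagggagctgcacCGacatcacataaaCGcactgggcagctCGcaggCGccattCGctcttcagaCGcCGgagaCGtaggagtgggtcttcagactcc
Over the 32 of the 51 genes without a count in CPT that had a promoter in the table, the median was 19 CpG sites, against 26 for tested genes and 14 for all 27305 promoters. No methylation was measured in these libraries.

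Germline genes were among those raised from 0. Of 88 cancer-testis and germline genes listed, which are expressed in germ cells and of which many lie on chromosome X, 18 passed the filter, 34 had 0 counts in all 6 libraries, 7 rose and 0 fell. Of the 18, CTCFL, TDRD9, MAGEB2, SSX1 and DAZL had 0 counts in CPT and passed the filter through other groups, where they were higher. The count of 7 and the p-values of these genes carry that selection and are a description. CTCFL, a testis paralogue of CTCF, was at 0 in CPT and at 1, 1.31 and 0.429 CPM after priming, at least 5.53-fold higher (edgeR adjusted p = 0.000775). TDRD9, a helicase that silences transposons in germ cells, was at least 3.88-fold higher (0 against 0.845, 0.341 and 0.735 CPM, edgeR adjusted p = 0.00181). PRAME was already expressed, at 32.1, 29.8 and 31.6 CPM, and rose 1.45-fold to 46.4, 40.6 and 48.7 CPM (edgeR adjusted p = 0.000131). TKTL1, described above, MAGEB2, TDRD12 and SSX1 completed the 7, and the count was 5 to 7 with any of the 6 libraries left out.

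Interferon-stimulated genes rose by moderate amounts and none of those tested fell. Of 55 listed, 43 passed the filter, 17 rose (14 of them more than 1.5-fold) and 26 did not pass the test, with a median log2 fold change of 0.51. UBE2L6, the enzyme that conjugates ISG15 to proteins, went from 4.23, 6.59 and 5.08 CPM to 14.4, 13.9 and 14.6 CPM (2.68-fold, edgeR adjusted p = 2.01e-06). All 3 primed libraries lay within 1 CPM of each other and above every CPT library. IFIT2, which binds viral RNA, was at 18, 14 and 17.5 and 29.7, 28.6 and 25.5 CPM, a 1.7-fold rise, and APOL6, a member of the apolipoprotein L family, at 3.79, 4.38 and 3.33 and 9.35, 8.29 and 8.88 CPM, a 2.3-fold rise (edgeR adjusted p = 3.68e-05 and 0.000197). IFITM2, which blocks the entry of viruses, rose 1.59-fold (edgeR adjusted p = 0.000578). IFIT1, MX1, MX2, OAS2, IFI27 and IFI44, classical members of the same response, did not pass the test, with log2 fold changes from -0.12 for MX2 to 0.51 for IFI44. The number of higher genes was 13 to 17 with 1 library left out and 17 without CPT replicate 3.

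The promoters of IFIT3, ISG15 and OAS3 are shown because they hold the paired GAAA element through which interferon factors act on such genes. The element searched was GAAA, any 2 bases, GAAA on either strand (TTTC, any 2 bases, TTTC on the strand printed), in capitals, where matches may overlap and then form 1 run. These 3 genes, chosen after their values were seen, lie at chr10:89327747-89328046 on the plus strand, chr1:1013247-1013546 on the plus strand and chr12:112938224-112938523 on the plus strand (RefSeq, GRCh38.p14). Their RefSeq starts lie 690, 12359 and 423 bases inside the genes as annotated in GENCODE.
IFIT3: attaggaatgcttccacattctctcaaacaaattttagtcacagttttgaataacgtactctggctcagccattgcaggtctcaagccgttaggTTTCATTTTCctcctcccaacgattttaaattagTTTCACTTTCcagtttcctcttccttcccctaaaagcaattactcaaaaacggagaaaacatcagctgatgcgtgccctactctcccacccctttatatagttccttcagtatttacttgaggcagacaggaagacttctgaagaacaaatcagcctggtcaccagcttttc
ISG15: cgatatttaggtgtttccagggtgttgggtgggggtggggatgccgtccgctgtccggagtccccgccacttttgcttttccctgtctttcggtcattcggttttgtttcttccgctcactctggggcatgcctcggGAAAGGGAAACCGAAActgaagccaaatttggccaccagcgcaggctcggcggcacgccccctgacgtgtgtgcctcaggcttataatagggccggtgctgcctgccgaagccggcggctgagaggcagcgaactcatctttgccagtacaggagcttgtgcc
OAS3: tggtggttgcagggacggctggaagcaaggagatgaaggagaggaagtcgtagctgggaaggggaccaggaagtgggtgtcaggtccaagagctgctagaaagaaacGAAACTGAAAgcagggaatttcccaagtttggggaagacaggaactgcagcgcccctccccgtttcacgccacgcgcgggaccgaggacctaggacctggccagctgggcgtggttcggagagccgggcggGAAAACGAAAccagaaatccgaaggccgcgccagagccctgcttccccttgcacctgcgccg
Each of the 3 holds 2 matches. IFIT3 was at 8.14, 8.17 and 6.39 CPM in CPT and 14.4, 12.3 and 13.7 CPM in CPT+GTA+5-Aza, ISG15 at 15.3, 18.2 and 14.5 and 26.5, 25.6 and 22.7 CPM, and OAS3 at 4.12, 3.39 and 3.82 and 5.39, 7.49 and 6.92 CPM. The primed libraries were above the CPT libraries for each, with log2 fold changes of 0.83 ± 0.16, 0.63 ± 0.12 and 0.80 ± 0.21 (SE, edgeR adjusted p = 0.000679, 0.000699 and 0.009), and the call for OAS3 was lost without CPT+GTA+5-Aza replicate 2 (0.0599). The element was found in 3.65% of all promoters and in 32 of the 44 promoters of the interferon-stimulated list. Among list members it was present in 10 of the 13 promoters of genes that rose and in 17 of the 21 promoters of tested genes that were not called.

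Some HLA class I genes and some genes for the sensing of nucleic acids upstream of interferon rose. HLA-B, which presents peptides to T cells, was at 10.8, 9.4 and 10.8 CPM in CPT and 25.4, 26.3 and 24.9 CPM in CPT+GTA+5-Aza, and the groups did not overlap (2.47-fold, edgeR adjusted p = 1.2e-07). HLA-C was at 2.86, 4.28 and 4.15 and 11.3, 10.4 and 11.6 CPM (2.93-fold, edgeR adjusted p = 5e-05) and HLA-E at 74.4, 81 and 62.8 and 113, 108 and 122 CPM (1.57-fold, edgeR adjusted p = 1.7e-06). These genes are close copies of each other, and how reads that fit several of them were counted is not given in the sources used here. Of 20 tested genes for HLA class I and antigen processing, 8 rose and 1 fell, the 8 including TAP1, PSMB8, ERAP2 and NLRC5 and the fall being that of the chaperone CANX. Without CPT replicate 2, 2 fell. The median of the 20 was 0.30, and 0.15 without CPT replicate 3, where 8 rose and 1 fell again.

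STING1, the adaptor that signals the presence of DNA in the cytosol, was at 0.55, 1.28 and 1.8 CPM in CPT and 3.7, 3.63 and 4.16 CPM in CPT+GTA+5-Aza, with all primed libraries higher (3.15-fold, log2 fold change 1.65 ± 0.34, edgeR adjusted p = 0.00105). The interferon regulatory factors IRF3 and IRF5 rose 1.33-fold and 1.67-fold (edgeR adjusted p = 0.00248 and 0.00406). IRF1 rose 1.5-fold with an edgeR adjusted p of 0.00783, which reached 0.0635 without CPT replicate 1 or without CPT+GTA+5-Aza replicate 3. With STAT2 and CGAS, 6 of 25 tested genes of this list rose and 0 fell, with a median log2 fold change of 0.10.

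**Figure D3:**
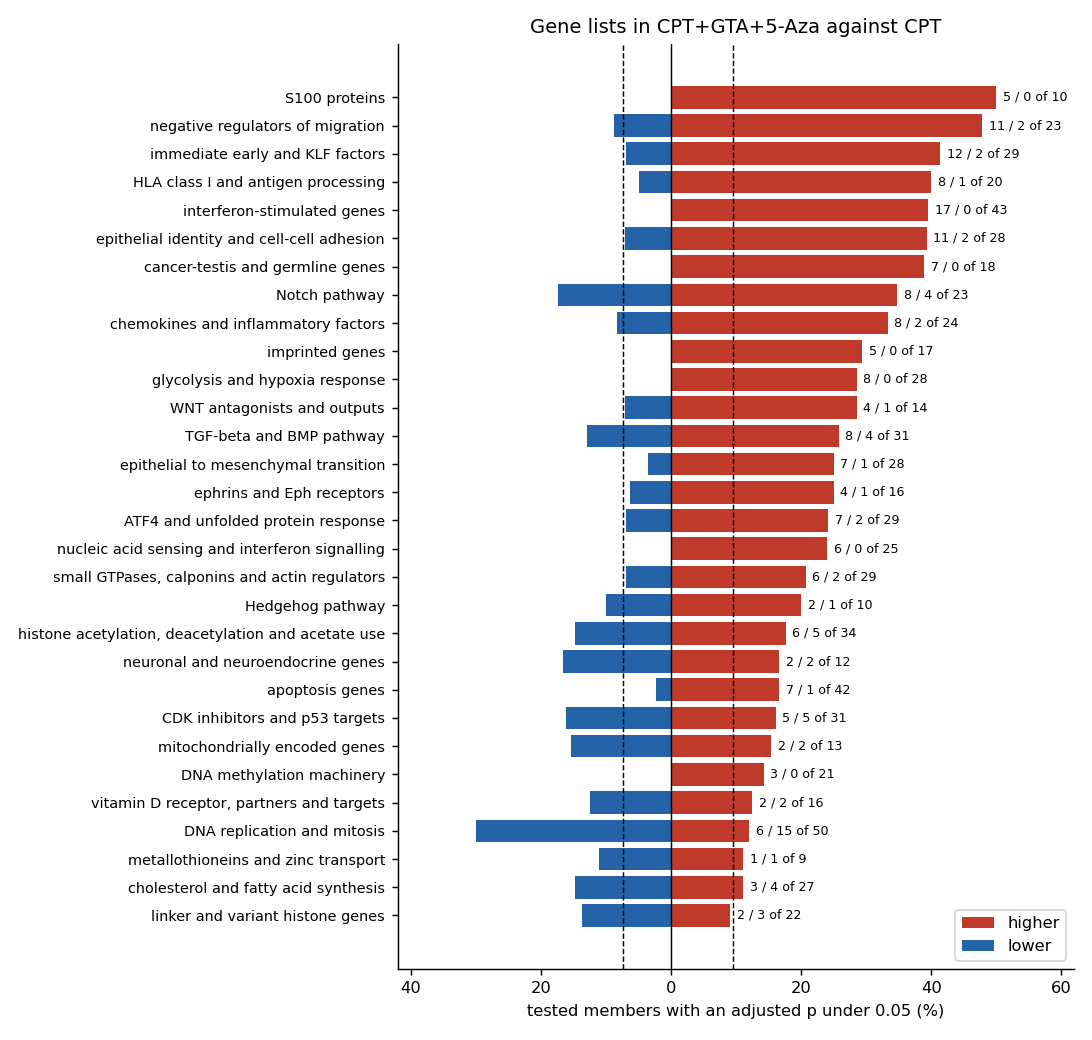
Share of the tested members of 30 gene lists (rows) with an edgeR adjusted p under 0.05, in percent, drawn to the right where higher in CPT+GTA+5-Aza (red) and to the left where lower (blue). Dashed lines mark the shares over all 17123 tested genes, 9.57% higher and 7.39% lower, and numbers give higher / lower of tested; interferon-stimulated genes reach 17 / 0 of 43 and DNA replication and mitosis 6 / 15 of 50.

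Inhibitors of growth moved in both directions. CDKN1A, which encodes the cyclin-dependent kinase inhibitor p21, was at 0.66, 1.03 and 0.273 CPM in CPT and 3.49, 3.75 and 5.69 CPM in CPT+GTA+5-Aza. Every primed library was above every CPT library, at a low level throughout, and the log2 fold change was 2.69 ± 0.44 (SE, edgeR adjusted p = 8.42e-05). CDKN1B, which encodes the related inhibitor p27, fell instead, from 56.8, 64.6 and 56.1 to 43.4, 42.1 and 45.7 CPM (1.35-fold, edgeR adjusted p = 0.000849), and PLK2 and CCNG1, targets of p53, fell 1.21-fold and 1.19-fold (edgeR adjusted p = 0.000133 and 0.00422). Over 31 tested CDK inhibitors and p53 targets, 5 rose and 5 fell, and the median log2 fold change was 0.08. With all libraries both shares were above the background. The 5 that rose became 2 without CPT replicate 3 and 3 without each of 4 other libraries, and the 5 that fell became 3 without any of the CPT+GTA+5-Aza libraries. Calls over all tested genes were fewer in these fits as well. Without CPT replicate 3, 1370 genes were higher in place of 1639, and without CPT+GTA+5-Aza replicate 2, 766 were lower in place of 1265. The shares with all libraries are therefore not a background for the smaller list counts. CCNG2, a cyclin that slows the cell cycle, was at 5.33, 4.38 and 5.73 and 7.29, 7.32 and 7.1 CPM and did not pass (log2 fold change 0.49 ± 0.20, edgeR adjusted p = 0.0874).

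Among 42 tested apoptosis genes, 7 rose and 1 fell, with a median log2 fold change of 0.09. BBC3, which encodes the BH3-only protein PUMA, was at 0, 0.639 and 0.382 CPM in CPT and 1.53, 2.44 and 3 CPM in CPT+GTA+5-Aza (6.56-fold, or 11.7-fold without CPT replicate 2, edgeR adjusted p = 0.00181). TNFRSF10A, a death receptor for TRAIL, rose from 19.4, 20.6 and 19.4 to 27.8, 28.3 and 27.7 CPM (edgeR adjusted p = 0.00135). CFLAR, which blocks the signal from death receptors, rose as well, from 80.7, 78.1 and 75.8 to 98.9, 97.3 and 105 CPM (edgeR adjusted p = 0.000499). TNFRSF10B, BIK and CASP6 were also among the 7, and 5 to 9 members rose with 1 library left out. CYCS, the gene that fell, had overlapping libraries and was not called without CPT+GTA+5-Aza replicate 2, and 2 fell without CPT replicate 3 or CPT+GTA+5-Aza replicate 1.

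Genes that restrain migration and WNT signalling held some of the larger rises. SFRP1 (ENSG00000104332, chr8:41261962-41309473, minus strand), a secreted antagonist of WNT ligands, was at 0.935, 0.836 and 0.928 CPM in CPT and 10.3, 8.29 and 12.9 CPM in CPT+GTA+5-Aza. The primed libraries were 11.6-fold higher and the groups were far apart (log2 fold change 3.53 ± 0.26, edgeR adjusted p = 4.63e-10). NOG, which encodes the BMP antagonist noggin, went from 18.9, 26.3 and 21.1 to 44.6, 46 and 50 CPM (2.12-fold, edgeR adjusted p = 1.42e-07). SEMA3F, a repulsive guidance protein, rose from 5, 2.51 and 2.24 to 10.2, 12.8 and 11.1 CPM (3.5-fold, edgeR adjusted p = 6.74e-06), whereas its relative SEMA3A fell from 429, 392 and 464 to 295, 275 and 276 CPM (1.52-fold, edgeR adjusted p = 5.06e-07). RHOB, a small GTPase, rose 1.64-fold (edgeR adjusted p = 7.96e-05). Of 23 tested negative regulators of migration, 11 rose and 2 fell (SEMA3A among them), 9 to 12 rose with 1 library left out, and 1 fell without CPT+GTA+5-Aza replicate 3. The median log2 fold change was 0.23.

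Of 14 tested WNT antagonists and outputs, 4 rose (SFRP1, DKK1, NKD1 and WNT11) and AXIN1 fell. DKK1, another secreted WNT antagonist, moved from 86.7, 78.7 and 81.8 to 103, 100 and 103 CPM (1.24-fold, edgeR adjusted p = 0.00181), and NKD1, a feedback inhibitor, from 1.98, 1.82 and 1.69 to 3.96, 4.37 and 4.29 CPM (2.29-fold, edgeR adjusted p = 0.00409). WNT11 passed with an edgeR adjusted p of 0.0114, lost without CPT replicate 1 or CPT+GTA+5-Aza replicate 2 (up to 0.0676), and the fall of AXIN1 was lost without any of 3 libraries (CPT replicate 1 and CPT+GTA+5-Aza replicates 1 and 2). WNT11 passed the filter through the primed groups, so its p-value and the 4 that rose carry that selection.

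Part of the epithelial genes rose. JUP, which encodes the junction protein plakoglobin, was at 20.7, 21.6 and 21.1 CPM in CPT and 39, 35.9 and 38.7 CPM in CPT+GTA+5-Aza (1.79-fold, edgeR adjusted p = 1.77e-06). SOX9, a transcription factor of duct cells, rose from 151, 149 and 162 to 219, 231 and 222 CPM (1.46-fold, edgeR adjusted p = 2.99e-07), CEACAM1, a cell adhesion molecule, from 5.55, 5.02 and 6 to 11.5, 11.5 and 15.5 CPM (2.32-fold, edgeR adjusted p = 1.09e-05), and ELF3, an epithelial ETS factor, from 1.54, 1.67 and 0.382 to 4.23, 4.94 and 4.96 CPM (3.89-fold, edgeR adjusted p = 0.000518). None of these groups overlapped. Of 28 tested genes of epithelial identity and adhesion, 11 rose and 2 fell (KRT80 and PKP3), with a median of 0.28, and the 11 became 7 without CPT replicate 1 or without CPT+GTA+5-Aza replicate 1 or 2. Without either of the last 2, 1 fell. VIM, which encodes the mesenchymal filament vimentin, stayed abundant and fell from 6310, 6071 and 6593 to 5432, 5731 and 5589 CPM (1.13-fold, edgeR adjusted p = 0.00158). ZEB1, a repressor of epithelial genes, was at 58.9, 50.5 and 65.9 and 58.2, 52.5 and 46.2 CPM and did not pass (log2 fold change -0.16 ± 0.10, edgeR adjusted p = 0.298, and 0.0468 without CPT replicate 2).

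Some mesenchymal genes rose too. Of 28 tested genes of epithelial to mesenchymal transition, 7 rose and VIM fell, with a median of 0.16. TWIST1 and COL1A1 were near 0 without priming, and TNC was low without it. These genes passed the filter through the primed groups, so the 7 and the p-values of these genes carry that selection. Beside TWIST1, COL1A1, a fibrillar collagen, rose from 0.275, 0.0492 and 0.0546 to 1.11, 1.25 and 1.96 CPM (11-fold, or 24.6-fold without CPT replicate 1, edgeR adjusted p = 0.000934) and TNC, the matrix protein tenascin-C, from 0.055, 0.197 and 0.109 to 1.16, 1.53 and 1.35 CPM (10.5-fold, edgeR adjusted p = 0.000938). Among regulators of actin, CNN3, which encodes calponin 3, rose 12.4-fold, from 0.605, 0.197 and 1.26 to 7.24, 8.8 and 9.37 CPM (21.2-fold without CPT replicate 3, edgeR adjusted p = 1.21e-08), and FSCN1, which encodes the bundling protein fascin, rose 2.01-fold (edgeR adjusted p = 2.39e-05). DOCK1, an activator of RAC, fell from 91.9, 85.7 and 101 to 61.2, 59.3 and 67.9 CPM (1.48-fold, edgeR adjusted p = 1.19e-05), and RAC2 was at 0.66, 1.18 and 0.873 and 1.37, 1.87 and 1.59 CPM and did not pass (edgeR adjusted p = 0.178). Of 29 tested small GTPases, calponins and actin regulators, 6 rose and 2 fell, 10 rose and 5 fell without CPT replicate 2, and 1 fell without any of the 4 libraries other than CPT replicates 2 and 3.

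Secreted and early response genes rose from levels well above 0. LIF, a cytokine of the IL-6 family, was at 20.8, 22.4 and 22.3 CPM in CPT and 41.7, 48.3 and 53.2 CPM in CPT+GTA+5-Aza (2.18-fold, edgeR adjusted p = 6.9e-08), and SPHK1, the kinase that makes sphingosine-1-phosphate, went from 23, 26.5 and 23.1 to 54.4, 54.7 and 48 CPM (2.16-fold, edgeR adjusted p = 1.34e-07). FHOD1, a formin, and ENSG00000272405, which has no symbol here, were also among the abundant genes with the largest rises (2.07-fold and 2.91-fold, edgeR adjusted p = 2.83e-09 and 9.25e-10). The urokinase PLAU and its receptor PLAUR rose 1.42-fold and 2.19-fold (edgeR adjusted p = 4.52e-06 and 2.54e-06). Of 24 tested chemokines and inflammatory factors, 8 rose and 2 fell (CSF1 and NFKBIA), with a median of 0.53, and 1 fell without CPT replicate 1 or CPT+GTA+5-Aza replicate 3.

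EGR1, a transcription factor induced within minutes of many stimuli, was at 13.9, 13 and 15.2 CPM in CPT and 30.3, 31.3 and 28.7 CPM in CPT+GTA+5-Aza (2.15-fold, edgeR adjusted p = 1.73e-06). IER3 rose from 4.56, 6.2 and 6.55 to 14.7, 14.2 and 14 CPM and JUN, a subunit of AP-1, from 50.8, 48.4 and 47.9 to 74.3, 78.7 and 78.5 CPM (edgeR adjusted p = 3.52e-06 and 6.82e-06). Of 29 tested immediate early and KLF factors, 12 rose and 2 fell (FOSL2 and KLF6), 9 to 11 rose with 1 library left out, and the median was 0.39. Without CPT+GTA+5-Aza replicate 1 or 2, 1 fell. The 12 hold DUSP10, which had 0 counts in CPT and passed the filter through the primed groups, so they carry that selection.

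Genes that fell were fewer and spanned more of the genome. Among annotated genes, the median was 42.2 kb over 130 of the 141 that fell and 21.6 kb over 826 of the 851 that rose. Over 16472 of the 17123 tested genes it was 22.8 kb. POLR1F (ENSG00000105849, chr7:19695461-19709037, minus strand), a subunit of RNA polymerase I, was at 297, 264 and 342 CPM in CPT and 147, 144 and 150 CPM in CPT+GTA+5-Aza. The CPT libraries were all higher and more spread (log2 fold change -1.03 ± 0.07, edgeR adjusted p = 2.44e-10). RPTOR (ENSG00000141564, chr17:80544819-80966371, plus strand), which encodes the raptor subunit of mTORC1, went from 66.8, 85.5 and 73.4 to 31.4, 30.5 and 28.5 CPM (2.49-fold lower, edgeR adjusted p = 3.37e-10). INPP5A, an inositol phosphatase, fell from 39.5, 43.4 and 40.9 to 16.7, 16.8 and 16.5 CPM (2.47-fold, edgeR adjusted p = 1.42e-09), and the class IIa histone deacetylase HDAC4 from 50.1, 50.5 and 47.5 to 24.5, 19.4 and 20.3 CPM (2.31-fold, edgeR adjusted p = 2.6e-08). MAD1L1, of the spindle checkpoint, fell 2-fold and EHMT1, a histone H3 lysine 9 methyltransferase, 1.72-fold (edgeR adjusted p = 4.23e-08 and 6.9e-08). RPTOR, INPP5A, HDAC4, MAD1L1 and EHMT1 span 422, 246, 353, 417 and 251 kb and lie 2.29, 1.01, 2.79, 1.82 and 0.525 Mb from the end of their chromosome. POLR1F spans 13.6 kb and lies 19.7 Mb from the end of its chromosome.

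SCG2, which encodes the granule protein secretogranin II, spans 5.42 kb and lies 18.6 Mb from the end of its chromosome. SCG2 fell from 280, 283 and 278 to 171, 170 and 173 CPM (1.64-fold, edgeR adjusted p = 1.36e-09). TNS3, a focal adhesion protein, and IKZF2, a zinc finger factor, fell 1.52-fold and 1.81-fold (edgeR adjusted p = 1.21e-08 and 2.89e-07). ENSG00000184779, which is not in the annotation used, fell with an edgeR adjusted p of 0.0497, its libraries overlapped (119, 26.5 and 105 against 46.9, 39.6 and 37.5 CPM), and the call held only when CPT replicate 2 was left out.

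The pattern by span was seen over all protein-coding genes. Of 2360 tested genes that span under 10 kb, 4.87% were lower and 15.4% higher at an edgeR adjusted p under 0.05, and of 376 that span 300 kb or more, 22.6% were lower and 5.05% higher. With 1 library left out, 3.07% to 6.22% of the short genes and 13.9% to 26.3% of the long genes were lower, and 9.76% to 22.4% and 2.31% to 5.93% were higher, the lowest of these both without CPT replicate 1. Among 193 genes that span at least 100 kb and lie within 5 Mb of a chromosome end, 55 (28.5%) were lower and 6 (3.11%) higher, and 8.29% were lower by more than 1.5-fold. Among the 8558 genes that are shorter and farther from an end, 7.68% were lower and 13.1% higher, which became 4.33% to 10.6% lower and 9.28% to 15.6% higher with 1 library left out. Of 2092 long genes away from an end, 15.7% were lower and 7.03% higher, and of 1526 short genes near an end, 7.93% and 12.2%. By distance alone the lower share changed little, from 10.4% within 2 Mb of an end to 9.19% at 20 Mb or more. The higher share for long genes near an end was 2.04% to 2.56% with 1 library left out. Their lower share was 22.4% to 29.1% with 1 library left out, 40.4% with the trend of each library with GC content removed, and 30.1% in GTA+5-Aza against Con, which shares no library with this comparison. These classes were chosen with the data known, and the shares are given without a test.

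**Figure D4:**
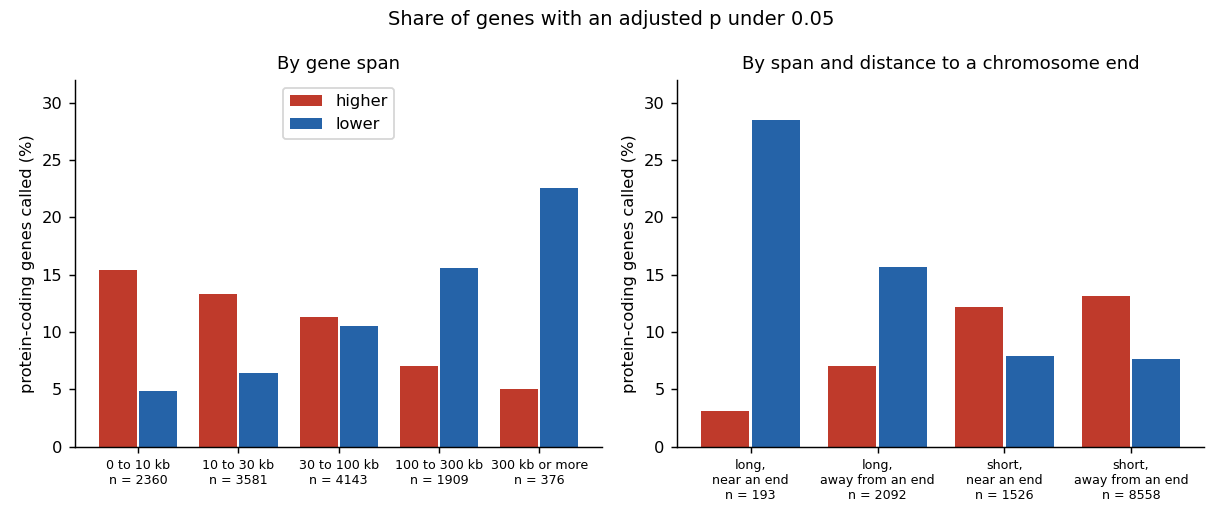
Share of tested protein-coding genes with an edgeR adjusted p under 0.05 (vertical axis, percent, from 0), higher in red and lower in blue, by the span of the gene (left) and by span and distance to a chromosome end (right, long meaning at least 100 kb and near an end within 5 Mb). The lower share climbs from 4.87% to 22.6% with span and is 28.5% for long genes near an end, 15.7% for long genes away from an end and 7.93% for short genes near an end.

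The level before treatment also separated the directions. By the mean in the Con libraries, which this comparison does not use, 9.88% of genes under 0.5 CPM were higher and 0.699% lower, while of genes at 32 CPM or more 8.27% were higher and 16.7% lower. Low genes reached the test through the group in which they were high, and small changes pass only at high counts, so these shares also carry the filter and the depth. By biotype, 11.8% of protein-coding genes were higher and 9.39% lower, against 4.15% and 2.08% of lncRNA genes. By chromosome, X had the highest share of higher genes (16.4% of 493) and chromosome 13 the lowest (1.99% of 251), and chromosome 19 had 2.97% lower.

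Part of the genes of replication and mitosis fell slightly. Of 50 tested, 15 fell and 6 rose, none by more than 1.5-fold, with a median log2 fold change of -0.12. The 4 members whose values follow were above 32 CPM. Of all tested genes at 32 CPM or more in Con, 16.7% were lower and 8.27% higher. CCNB1, the mitotic cyclin, was at 431, 415 and 440 CPM in CPT and 323, 327 and 313 CPM in CPT+GTA+5-Aza (1.34-fold lower, edgeR adjusted p = 1.77e-06). AURKA, a kinase of the spindle poles, fell from 218, 219 and 212 to 168, 158 and 171 CPM, CCNA2 from 193, 182 and 211 to 148, 144 and 151 CPM and CENPE, a kinetochore motor, from 175, 154 and 191 to 134, 110 and 119 CPM (edgeR adjusted p = 2.39e-05, 6.27e-05 and 8.15e-05). In these 4 genes no primed library reached the CPT libraries. The members that rose were E2F2, CDK1, UBE2C, AURKB, CDT1 and MCM3. These numbers moved with single libraries. In detail, 11 fell and 1 rose without CPT replicate 3, 9 fell without CPT replicate 1, and 8 fell without CPT+GTA+5-Aza replicate 1 or 3. In addition, 1 rose without CPT+GTA+5-Aza replicate 2 and 2 rose without CPT replicate 1 or CPT+GTA+5-Aza replicate 1 or 3. With library size alone as scaling, 9 fell and 8 rose.

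The receptor of the drug given to both groups was expressed at a low level. VDR was at 1.1, 1.43 and 1.2 CPM in CPT and 1.48, 1.53 and 1.22 CPM in CPT+GTA+5-Aza, the groups overlapped, and the log2 fold change of 0.18 ± 0.38 (SE) did not pass the test (edgeR adjusted p = 0.805). CYP24A1 had 0 counts in each CPT library and 2, 0 and 0 counts in the CPT+GTA+5-Aza libraries, below the limit that a count of 0 allows. Of 30 genes listed as Vitamin D receptor, partners and targets, 16 were tested, 2 rose (CDKN1A and RXRB) and 2 fell (the coactivators MED1 and NCOA3). Both counts are near the shares over protein-coding genes, 11.8% higher and 9.39% lower. RXRB, a partner of VDR, went from 36.6, 39.9 and 35.7 to 48.9, 50.2 and 45.1 CPM (edgeR adjusted p = 0.00869, and 0.051 without CPT+GTA+5-Aza replicate 2). The falls of MED1 and NCOA3 (edgeR adjusted p = 0.0279 and 0.039) were both lost without CPT replicate 1 or 3 or CPT+GTA+5-Aza replicate 1 or 3, that of NCOA3 also without CPT+GTA+5-Aza replicate 2, and 4 members fell without CPT replicate 2. The median of the list changed from -0.07 to 0.05 without CPT replicate 3.

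MT1G, a metallothionein that binds zinc and copper, was at 0.605, 0 and 0 CPM in CPT and 2.22, 1.02 and 1.71 CPM in CPT+GTA+5-Aza (8.17-fold, edgeR adjusted p = 0.0101, and 0.0581 without CPT+GTA+5-Aza replicate 1). All of its reads in CPT were in replicate 1, without which it was at least 10.0-fold higher, and without CPT replicate 2 the fold was 5.36. MT1G passed the filter through the primed groups, so its folds and p-values carry that selection. MT1X fell with an edgeR adjusted p of 0.0491 and overlapping libraries, and the call held only without CPT replicate 3. MT1E, an abundant relative, was at 624, 675 and 575 and 542, 587 and 593 CPM and did not pass. Metallothionein genes are near copies of each other, so reads may be shared between them.

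Pathways of cell fate moved member by member. In the Notch pathway, the receptor NOTCH3 rose from 35.5, 46.7 and 39.2 to 74.6, 80 and 76.5 CPM (1.9-fold, edgeR adjusted p = 1.46e-07) and the HES family genes HES2, HES6 and HES7 rose 2.19-fold, 1.9-fold and 11-fold (edgeR adjusted p = 4.57e-05, 9.31e-05 and 2.83e-05). HES7 was at 0.22, 0.984 and 0 CPM in CPT and 4.38, 4.31 and 5.2 CPM in CPT+GTA+5-Aza, and its fold was 39.7 without CPT replicate 2. NOTCH1, the ligand JAG1, the protease ADAM10 and the coactivator MAML1 fell, so that 8 of 23 tested members rose and 4 fell, with 5 that rose without CPT replicate 1 or CPT+GTA+5-Aza replicate 1. HEY1, a target of Notch, was at 3.52, 4.57 and 2.4 and 2.17, 2.78 and 1.04 CPM and did not pass (log2 fold change -0.80 ± 0.37, edgeR adjusted p = 0.148).

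In the TGF-beta and BMP pathway 8 of 31 tested members rose and 4 fell. LTBP2, a matrix protein related to those that store latent TGF-beta, rose from 13.1, 13.6 and 14.1 to 32.4, 31 and 35.3 CPM (2.42-fold, edgeR adjusted p = 5.07e-08). TGFBR3, a co-receptor, fell from 89.7, 78.6 and 99 to 49.9, 53.6 and 50.9 CPM (1.73-fold, edgeR adjusted p = 3.03e-07), and ID2, a target of BMP signals, fell from 137, 139 and 149 to 97.5, 104 and 96.3 CPM (1.43-fold, edgeR adjusted p = 6.97e-06). BAMBI and BMPR2 were the other members that fell, and 7 fell without CPT replicate 2. TGFB2 was at 2.47, 1.38 and 1.36 and 1.37, 2.1 and 1.71 CPM with a log2 fold change of -0.01 ± 0.38 and did not pass.

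In the Hedgehog pathway, the transducer SMO rose from 48.4, 54.8 and 40 to 70, 72 and 77 CPM (1.53-fold, edgeR adjusted p = 4.16e-05), while the ligand SHH was at 29, 30.5 and 29.7 and 26.4, 29 and 27.6 CPM and did not pass (log2 fold change -0.11 ± 0.12, edgeR adjusted p = 0.613). Of the 10 tested, CDON also rose, with overlapping libraries, and GAS1 fell. Both calls were lost without CPT replicate 1 or CPT+GTA+5-Aza replicate 1, and 1 gene rose without CPT+GTA+5-Aza replicate 2. Among ephrins and Eph receptors, EPHA4 fell from 164, 153 and 165 to 113, 106 and 103 CPM (1.5-fold, edgeR adjusted p = 1.6e-06) and EPHB3 rose from 1.54, 1.18 and 0.655 to 4.33, 4.09 and 4.1 CPM (3.69-fold, edgeR adjusted p = 0.000275). In all, 4 of 16 rose and 1 fell, with 2 that rose without CPT replicate 1 and 2 that fell without CPT replicate 2.

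Some imprinted genes and some chromatin regulators passed the test. MEG3, an imprinted lncRNA (ENSG00000214548, chr14:100779410-100861031, plus strand), was at 0.44, 0 and 0 CPM in CPT and 9.19, 5.73 and 6.12 CPM in CPT+GTA+5-Aza (47.5-fold, edgeR adjusted p = 1.42e-07). The CPT libraries 2 and 3 had no read and library 1 had 8, so the size of the fold rests on that library. The fold was 31.0 without CPT replicate 2, and without CPT replicate 1 only a lower bound of 42.5-fold can be given. PHLDA2, SLC22A18 and H19 rose 1.6-fold, 1.71-fold and 1.61-fold (edgeR adjusted p = 0.000576, 0.000828 and 0.00253). With CDKN1C, 5 of the 17 tested genes of the imprinted list, which does not hold FAM50B, rose and 0 fell, and 4 to 5 rose with 1 library left out. MEG3 passed the filter through the primed groups, so the 5 carry that selection. PHLDA2, SLC22A18, H19 and CDKN1C lie in an imprinted region of chromosome 11.

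Of the DNA methylation machinery, 3 of 21 tested genes rose, near the share of 11.8% over protein-coding genes, and 0 fell. The number that rose was 6 without CPT replicate 2 and 1 without CPT replicate 3 or CPT+GTA+5-Aza replicate 1 or 2. CDA, the deaminase that inactivates cytidine analogues, was at 1.37, 2.21 and 1.04 CPM in CPT and 3.06, 3.92 and 3.67 CPM in CPT+GTA+5-Aza (2.28-fold, edgeR adjusted p = 0.00596). Without CPT, CDA was at 3.16, 2.67 and 3.06 CPM in Con and 3.69, 3.11 and 3.56 CPM in GTA+5-Aza. That change did not pass (edgeR adjusted p = 0.667), and the difference with and without CPT did not pass either. DNMT3B, a de novo methyltransferase, and SLC29A1, a nucleoside transporter, passed narrowly (edgeR adjusted p = 0.0429 and 0.0456), and both calls were lost without CPT replicate 3 or CPT+GTA+5-Aza replicate 1 or 2, that of DNMT3B also without CPT+GTA+5-Aza replicate 3 and that of SLC29A1 without CPT replicate 1. Of 34 tested genes of histone acetylation and acetate use, 6 rose and 5 fell, which became 5 and 2 without CPT replicate 3 and 3 and 3 without CPT replicate 1. Without CPT+GTA+5-Aza replicate 1 or 3, 1 fell, and 3 fell without replicate 2 of that group. HDAC7 and HDAC5, class IIa deacetylases like HDAC4, rose 1.66-fold and 2.02-fold where HDAC4 fell (edgeR adjusted p = 0.000145 and 0.000172). ACSS2, which makes acetyl-CoA from acetate, rose from 18.8, 25.7 and 26 to 32.1, 35.9 and 34.5 CPM (1.45-fold, edgeR adjusted p = 0.00285).

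Metabolic and stress genes changed in small numbers. ENO2, an enolase of neurons, rose from 40.7, 36.4 and 30.4 to 70.3, 74.5 and 74 CPM (2.03-fold, edgeR adjusted p = 1.4e-08) and SLC2A3, a glucose transporter, from 5.77, 5.41 and 5.95 to 11.3, 10.2 and 11.8 CPM (1.94-fold, edgeR adjusted p = 0.00046). Of 28 tested genes of glycolysis and hypoxia, 8 rose and 0 fell, and 4 rose without CPT replicate 1, CPT replicate 3 or CPT+GTA+5-Aza replicate 2. Of 29 ATF4 and unfolded protein response genes, 7 rose and 2 fell, with 3 to 7 that rose when 1 library was left out (3 without CPT replicate 1 or CPT+GTA+5-Aza replicate 3, and 4 without replicate 1 or 2 of that group), and 1 fell without replicate 2 of that group. PHGDH, the first enzyme of serine synthesis, rose 1.8-fold, ASNS, which makes asparagine, 1.47-fold, and SLC7A11, the cystine transporter, fell 1.45-fold (edgeR adjusted p = 0.0001, 9.94e-05 and 0.000114). Of 27 genes of cholesterol and fatty acid synthesis, 3 rose and 4 fell, TM7SF2 with the largest rise (1.97-fold, edgeR adjusted p = 2.14e-05) and FASN among those that fell (1.24-fold, edgeR adjusted p = 0.000763), with 2 that fell without CPT+GTA+5-Aza replicate 1. The counts for these 27 genes are near the shares over protein-coding genes, 11.8% higher and 9.39% lower.

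Of 10 tested genes of S100 proteins, which bind calcium, 5 rose, led by S100A2 (3.41, 3.89 and 0.655 against 6.55, 7.32 and 7.65 CPM, 2.69-fold, edgeR adjusted p = 0.00275). That count rested on single libraries, with 2 that rose without CPT replicate 1 or 3 or CPT+GTA+5-Aza replicate 2 or 3, and 3 without CPT+GTA+5-Aza replicate 1. The S100 median dropped from 0.41 to 0.15 without CPT replicate 3. Of 22 tested linker and variant histone genes, 2 rose and 3 fell, and of 12 neuronal and neuroendocrine genes, 2 rose and 2 fell. Without CPT replicate 1 or 3 or CPT+GTA+5-Aza replicate 2 or 3, 1 of these histone genes rose and 1 of these neuronal genes fell. Of 13 mitochondrially encoded genes, 2 rose and 2 fell, led by MT-ND6, the gene on the light strand, which rose 1.31-fold (edgeR adjusted p = 7.96e-05), with 1 that rose without CPT+GTA+5-Aza replicate 2 and 1 that fell without CPT replicate 3 or any CPT+GTA+5-Aza library. The small counts for histone, neuronal and mitochondrially encoded genes are near the shares over protein-coding genes, 11.8% higher and 9.39% lower.

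Whether this response depended on CPT was asked by a test of the difference between priming with CPT and priming without it. In GTA+5-Aza against Con, 9.95% of tested genes were higher and 7.53% lower at an edgeR adjusted p under 0.05. Of the 851 genes higher with CPT, 609 (71.6%) were also called higher without CPT and 834 (98.0%) had the same sign, and of the 141 lower genes 71 (50.4%) were also called lower and 128 (90.8%) had the same sign. None of them was called in the opposite direction. In the test of the difference, 0.0% of genes passed (0 of 17123 in edgeR, where the smallest adjusted p was 0.54, and 0 in DESeq2), and 451 had an unadjusted P under 0.05. A likelihood ratio test called 3 genes (HSPA6, ENSG00000273361 and UPF3AP3), which had 63 to 76 counts over all 12 libraries. Without the filter on low counts 11 passed, most of them abundant, among them ENSG00000258486 (difference 2.35 on the log2 scale, adjusted p = 1.12e-38, 6311 counts over the 12 libraries), MT-RNR1 (0.47, adjusted p = 1.78e-05) and MT-ND5 (0.38, adjusted p = 8.32e-05), each with an adjusted p of 1 in edgeR's test with the filter.

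Some genes had unequal estimates without passing that test. UBE2L6 rose in both settings, with log2 fold changes of 1.42 ± 0.18 with CPT and 0.71 without it (edgeR adjusted p = 2.01e-06 and 0.00419), and the P of their difference was 0.00648 before and 1 after adjustment in edgeR. BBC3, TNC and ELF3 passed with CPT and not without it (log2 fold changes 0.88, 0.64 and 0.66 without CPT), with adjusted p-values for the difference of 1, 1 and 1 in edgeR's test. EFNA1, an ephrin ligand, rose with CPT from 3.3, 4.13 and 3.66 to 6.66, 6.36 and 5.69 CPM (edgeR adjusted p = 0.0203, lost without CPT replicate 1 or CPT+GTA+5-Aza replicate 1 or 2, up to 0.0852). Without CPT it was at 6.47, 5 and 5.35 CPM in Con and 2.56, 4.16 and 4.35 CPM in GTA+5-Aza, a log2 fold change of -0.60 that did not pass (edgeR adjusted p = 0.0648). The difference for EFNA1 was 1.35 ± 0.32 on the log2 scale (unadjusted P = 0.000228, adjusted p = 1 in edgeR's test).

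HSPA6, a heat shock protein, had the smallest P for the difference. It was at 0.0526, 0 and 0 CPM in Con, 0.748, 0.651 and 0.677 CPM in GTA+5-Aza, 0.22, 0.295 and 0.491 CPM in CPT and 0.0528, 0.0568 and 0.122 CPM in CPT+GTA+5-Aza. The difference rested on low counts, and its edgeR adjusted p was 0.54.

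**Figure D5:**
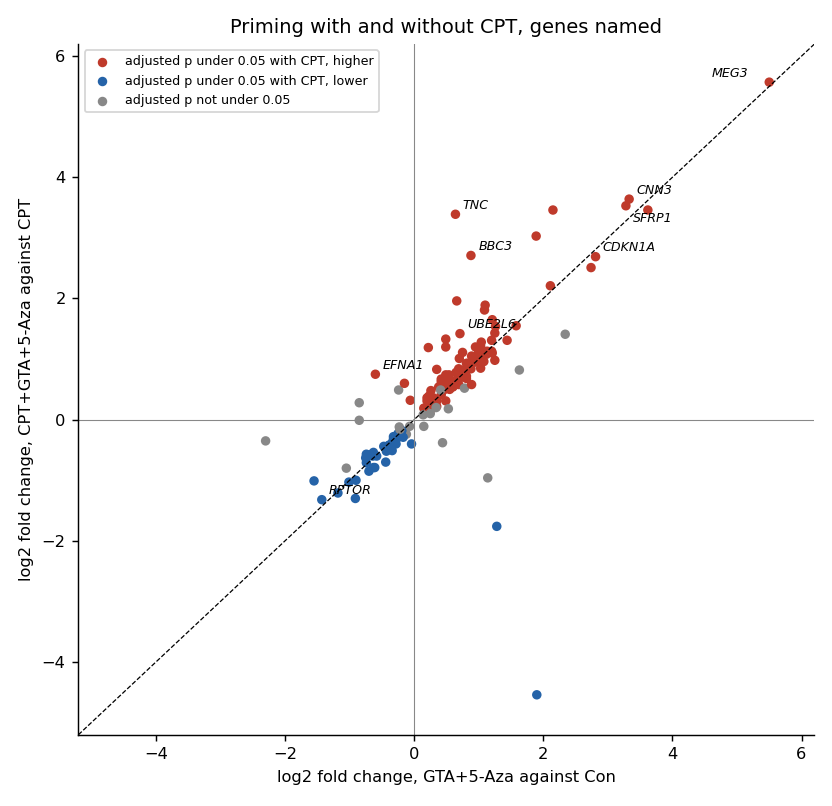
Log2 fold change on priming with CPT (vertical axis, CPT+GTA+5-Aza against CPT) against that without CPT (horizontal axis, GTA+5-Aza against Con) for 146 of the named genes with more than 3 counts in CPT and in Con, red or blue where the edgeR adjusted p with CPT was under 0.05. Most points lie near the dashed line of equal change, with MEG3 at 5.57 and 5.50, and those off the line include genes named for the size of their difference, none of which passed the test of it.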

How the data were processed

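The values are raw read counts per Ensembl gene that the authors deposited, made by them, per the submitters' processing notes, with Trim Galore, HISAT2 2.2.1 and HTSeq. The strand setting of the counting is not given in the sources used here, so overlapping and antisense genes are uncertain. Members and gene lists were chosen with earlier results of these data known. Counts of all 12 libraries, summing to 16162490 to 21224665, were filtered with filterByExpr, scaled by TMM and fitted with 1 mean per group in edgeR 4.0.16 (R 4.3.3). The quasi-likelihood test gave each contrast and their difference, with Benjamini-Hochberg adjustment over 17123 genes, and was tested on simulated data. CPM are counts scaled to the TMM-adjusted library size, not to gene length, so levels of different genes were not compared.

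Genes were named by rule, 193 in all, of which some are not reported here: those with the smallest p, the largest fold among abundant genes, the highest level among genes at 0 in CPT, the smallest p in each list and in the difference with and without CPT, and 13 chosen by name, CYP24A1 and others that the study names. Reads had been aligned to GRCh38. The files name no annotation release, coordinates are from GENCODE v44 on GRCh38, and 11496 of 63677 identifiers were not in it. Alternatives were DESeq2 1.42.0 and its size factors, library size alone, glmTreat, a likelihood ratio test, other filters, removal of each library's GC trend, the 2 groups alone, a replicate block and leaving out each library.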

Additional observations from a re-analysis of the deposited data

How the results depend on the processing

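Counts over all tested genes in the comparison of CPT+GTA+5-Aza with CPT stayed within 1.5 times those given above under DESeq2, its size factors, library size alone, the likelihood ratio test, the 1 CPM filter, removal of the GC trend and the 2 groups alone. The exceptions follow. Under glmTreat, which tests against a change of 1.5-fold, DEGs were 736 higher and 137 lower, genes with an adjusted p under 0.05 were 202 and 14 (with and without the fold threshold), and those without CPT were 203 and 13 (861 and 150 in the quasi-likelihood test). This test asks for evidence of a change above 1.5-fold and so calls fewer genes by construction. Without the filter on low counts, 493 DEGs were lower where the filter left 298. For the difference with and without CPT, the likelihood ratio test called 3 genes and the fit without the filter 11, and 0 were called in the other fits; the cause was not tested.

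Counts over single gene lists are small and moved more. With library size alone, 9 genes of replication and mitosis fell in place of 15, 1 of histone acetylation in place of 5, 2 of cholesterol and fatty acid synthesis in place of 4, 0 of the Vitamin D list in place of 2, 0 apoptosis genes and 0 metallothioneins in place of 1, and 1 in place of 2 among small GTPases and actin regulators, immediate early factors, neuronal genes and mitochondrially encoded genes. With DESeq2 size factors 5 small GTPases and actin regulators fell. In DESeq2 4 of these fell, as did 4 apoptosis genes and 1 gene of DNA methylation, where 0 had, and 1 mitochondrially encoded gene rose and 1 fell in place of 2 and 2. With the replicate block, 3 genes of histone acetylation, 1 of the Vitamin D list and 0 metallothioneins fell, and 1 gene of DNA methylation (in place of 3) and 1 of the Hedgehog list (in place of 2) rose. Other list counts stayed within 1.5 times under these 4 settings, apart from 1 marker that rose with library size alone where 0 had.

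With each library left out in turn, DEGs were 1138 to 1420 higher and 315 to 342 lower, genes with an adjusted p under 0.05 and a fold change above 1.5 were 702 to 1084 higher and 101 to 203 lower, and those at any fold were 1142 to 2050 higher and 766 to 1715 lower. Without CPT these were 661 to 845 higher and 106 to 144 lower. The highest counts came without CPT replicate 2. The median log2 fold change of all tested genes moved from 0.01 with TMM to 0.05 with library size alone. Of the named genes, 137 were called, 0 reversed under any alternative, and 90 lost the call under at least 1, each of the 90 under glmTreat.

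With the replicate number as a block, 849 genes were higher and 127 lower with the fold threshold, 1595 and 1172 at any fold, DEGs were 1176 and 283, priming without CPT gave 857 and 145, and the difference gave 0. The numbers were not taken to pair the libraries, since the deviations of same-numbered CPT and CPT+GTA+5-Aza libraries correlated at r = 0.07, 0.18 and 0.03 for replicates 1, 2 and 3, and CPT replicate 3 correlated better with CPT+GTA+5-Aza replicate 1 (0.13). For that reason the block was not combined with the GC trend. With 3 libraries a group, small changes pass mainly in abundant genes, and genes under about 3 counts per library cannot be told from 0.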
